A study of Mus musculus with 4 samples.

Results

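Motile cilia and ependymal genes are described here in a coronal brain section from hypertensive and normotensive mice, with or without stroke. The set holds 70 of the 33981 genes in the deposited tables (19213 of them protein-coding). It takes every protein-coding gene named as a cilia- and flagella-associated protein (31 *Cfap*), an axonemal dynein heavy chain (15 *Dnah*) or intermediate chain (2 *Dnaic*), a radial spoke protein (8 *Rsph*), a tektin (5 *Tekt*) or a nexin-dynein regulatory complex subunit (3 *Drc*), with *Ccdc153*, *Foxj1*, *Tmem212*, *Mia*, *Ak7* and *Spag6* added by name. The rule uses gene names and biotype and no measured value. Poly(A) RNA of a section that included the prefrontal cortex was sequenced in 4 groups of 6 libraries. All mice were male C57BL/6J aged 3 to 5 months and were studied for 28 days. NT mice were given saline and HT mice a daily dose of 0.28 mg angiotensin II per kg, and each underwent sham surgery or photothrombotic stroke (a light-activated dye clots cortical vessels) on day 7. The 2 sham groups are NT + Sham and HT + Sham, and the 2 stroke groups are NT + Stroke and HT + Stroke. The labels used here describe 1 sample in each group, for which the tables number 6 libraries. Whether each library came from 1 mouse is not given in the labels, so a P-value measures the spread between libraries. Libraries held 15922919 to 24865998 counts (median 18497216).

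Motile cilia beat by means of an axoneme of microtubule doublets. Dynein arms slide the doublets, the nexin-dynein regulatory complex and radial spokes control the sliding, and tektins and many CFAP proteins lie in or on the doublet wall. In the brain, multiciliated ependymal cells line the ventricles and move cerebrospinal fluid, and the transcription factors FOXJ1 and RFX switch on the motile cilia genes. Many genes with these names are also transcribed in cells without motile cilia, so the name of a gene does not place it in the ependyma. In a bulk section, fewer cells of a type and less RNA per cell cannot be told apart, and the amount of ventricle wall in each section was not measured.

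Regulatory sequence of the members was compared with that of other genes. RefSeq promoters on GRCm38.p6, from 250 bases before to 50 after the start site, were found for 58 of the 70 members. The X-box, the site bound by RFX factors, was found on either strand in 9 of the 58 (15.5%) and in 269 of 14647 genes with an entry (1.84%). Its half-site GTTGCC lay in 22 members (37.9%) and in 14.4% of all genes, and overlaps the X-box by construction. The forkhead motif GTAAACA lay in 5 members (8.62%) and in 3.36% of all genes. Of the 9 members with an X-box, only *Dnaic2* passed in a comparison below by edgeR. *Cfap298*, *Cfap44*, *Cfap45*, *Cfap99*, *Dnaic1*, *Rsph3b* and *Tekt2* did not, and *Cfap58* was not tested. Of the 5 with the forkhead motif, *Ak7* and *Cfap43* passed, *Cfap20* and *Dnah17* did not, and *Tekt3* was not tested. A match is a description of the letters and not a measured binding site. The promoters below are shown because 2 of the genes hold an X-box, 1 of which changed after stroke (*Dnaic2*) and 1 of which did not pass the test (*Cfap44*), and because the other 2 hold the forkhead motif and belong to genes that changed (*Ak7* and *Cfap43*). They are written 5′ to 3′ on the strand of the gene, with the X-box or the forkhead motif in capitals. The windows are, for *Dnaic2*, *Cfap44*, *Ak7* and *Cfap43* in that order, chr11:114727169-114727468 (plus strand), chr16:44394549-44394848 (plus), chr12:105705732-105706031 (plus) and chr19:47837312-47837611 (minus). *Foxj1* and 11 other members had no entry and are not shown.
Dnaic2: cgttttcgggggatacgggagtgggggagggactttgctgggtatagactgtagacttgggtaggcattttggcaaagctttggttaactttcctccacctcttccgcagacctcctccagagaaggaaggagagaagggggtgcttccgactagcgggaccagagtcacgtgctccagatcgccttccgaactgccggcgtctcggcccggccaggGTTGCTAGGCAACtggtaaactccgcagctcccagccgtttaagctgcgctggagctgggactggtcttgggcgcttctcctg
Cfap44: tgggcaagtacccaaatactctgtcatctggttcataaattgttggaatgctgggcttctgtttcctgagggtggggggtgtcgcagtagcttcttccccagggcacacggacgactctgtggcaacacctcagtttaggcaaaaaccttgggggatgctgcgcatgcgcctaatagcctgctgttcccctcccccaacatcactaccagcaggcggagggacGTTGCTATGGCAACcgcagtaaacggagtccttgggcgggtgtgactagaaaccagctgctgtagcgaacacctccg
Ak7: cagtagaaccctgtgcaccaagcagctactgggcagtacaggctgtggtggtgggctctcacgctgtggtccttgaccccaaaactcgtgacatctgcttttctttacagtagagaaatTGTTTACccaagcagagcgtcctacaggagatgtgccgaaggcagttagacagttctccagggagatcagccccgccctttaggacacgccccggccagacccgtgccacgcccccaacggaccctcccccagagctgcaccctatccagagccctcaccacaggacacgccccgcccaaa
Cfap43: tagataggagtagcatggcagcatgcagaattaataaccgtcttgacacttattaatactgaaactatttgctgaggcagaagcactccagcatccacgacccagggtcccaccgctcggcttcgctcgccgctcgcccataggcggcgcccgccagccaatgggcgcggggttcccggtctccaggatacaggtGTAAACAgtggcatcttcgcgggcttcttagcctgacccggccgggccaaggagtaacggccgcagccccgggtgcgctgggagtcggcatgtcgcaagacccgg

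The members covered a wide range of abundance. In NT + Sham, 19 members had a mean of at least 1 FPKM (fragments scaled to gene length and library size), 36 had 0.1 to under 1, and 15 were under 0.1. *Cfap36*, whose product binds a small GTPase of the primary cilium, was first at 33.8 ± 1.44 FPKM (SD, n = 6). *Cfap20* and *Cfap298* followed at 10.4 ± 0.651 and 10.02 ± 1.21 FPKM and did not differ beyond their spread. The highest of the other families were *Rsph9* (9.29 ± 1.21 FPKM), *Tekt5* (8.22 ± 0.870), *Drc1* (5.06 ± 0.416), *Dnaic1* (1.72 ± 0.364) and *Dnah7c* (0.780 ± 0.0119). *Foxj1*, the master regulator of motile ciliogenesis, reached 2.88 ± 0.831 FPKM, and the ependymal markers *Tmem212* and *Ccdc153* reached 0.948 ± 0.991 and 0.519 ± 0.431 FPKM. The filter on low counts left 9 members out of the tests reported here, with at most 2 to 22 counts in any library: *Cfap221*, *Cfap53*, *Cfap58*, *Cfap73*, *Cfap97d1*, *Dnah12*, *Mia*, *Rsph14* and *Tekt3*. *Mia*, which encodes a secreted protein, had 0 to 7 counts per library, and 29.8% of the 100-base stretches of its transcripts also occur in another gene.

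Stroke was first compared with sham surgery in normotensive mice. Of 59 members tested, 12 rose (20.3%), 2 fell (3.39%) and 45 did not pass the test. Among all 16835 genes tested, 25.9% passed, with 14.4% that rose and 11.5% that fell. The median log2 fold change of the members was 0.08, against -0.01 for all genes. The libraries of the groups did not overlap for 6 members that were higher, and for 7.78% of all genes, and for 1 member that was lower, and 5.74% of all genes. With each library left out in turn, 10 to 15 members passed (16.9 to 25.4%), and 20.8 to 24.8% of all genes.

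*Foxj1* (chr11:116330704-116335399, minus strand, GRCm38) showed the regulator of this programme to be higher after stroke. Its normalised read count, scaled to library size (CPM), in NT + Sham was 4.91 at the lowest, 7.30 at the median and 11.4 at the highest, and in NT + Stroke it was 12.98, 17.7 and 25.6. Every stroke library was above every sham library, and the log2 fold change was 1.26 ± 0.20 (SE; adjusted P = 0.000248). *Ak7*, an adenylate kinase of the axoneme (chr12:105705976-105782447, plus strand), ranged from 0.151 to 1.63 CPM (median 0.423) in NT + Sham and from 0.601 to 3.56 (median 1.73) in NT + Stroke. The groups overlapped through sham library 2, and the log2 fold change was 1.67 ± 0.51 (adjusted P = 0.0247). *Ccdc153*, a coiled-coil protein used as an ependymal marker (chr9:44240676-44247306, plus strand), ranged from 0.140 to 2.502 CPM (median 0.984) in NT + Sham and from 0.320 to 7.22 (median 4.07) in NT + Stroke. It had the largest log2 fold change of all members tested here (1.85 ± 0.69) and did not pass (adjusted P = 0.0735), with stroke libraries 4 and 5 within the sham range. Without stroke library 4 its adjusted P was 0.0111, and over all alternatives run it lay between 0.000122 and 0.155, with 5 of 21 under 0.05. *Tmem212*, a membrane protein of ependymal cells (chr3:27866066-27896368, minus strand), was spread as widely, at 0 to 1.85 CPM in NT + Sham and 0.2003 to 3.06 in NT + Stroke, and did not pass (log2 fold change 1.12 ± 0.75, adjusted P = 0.316).

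**Figure D1:**
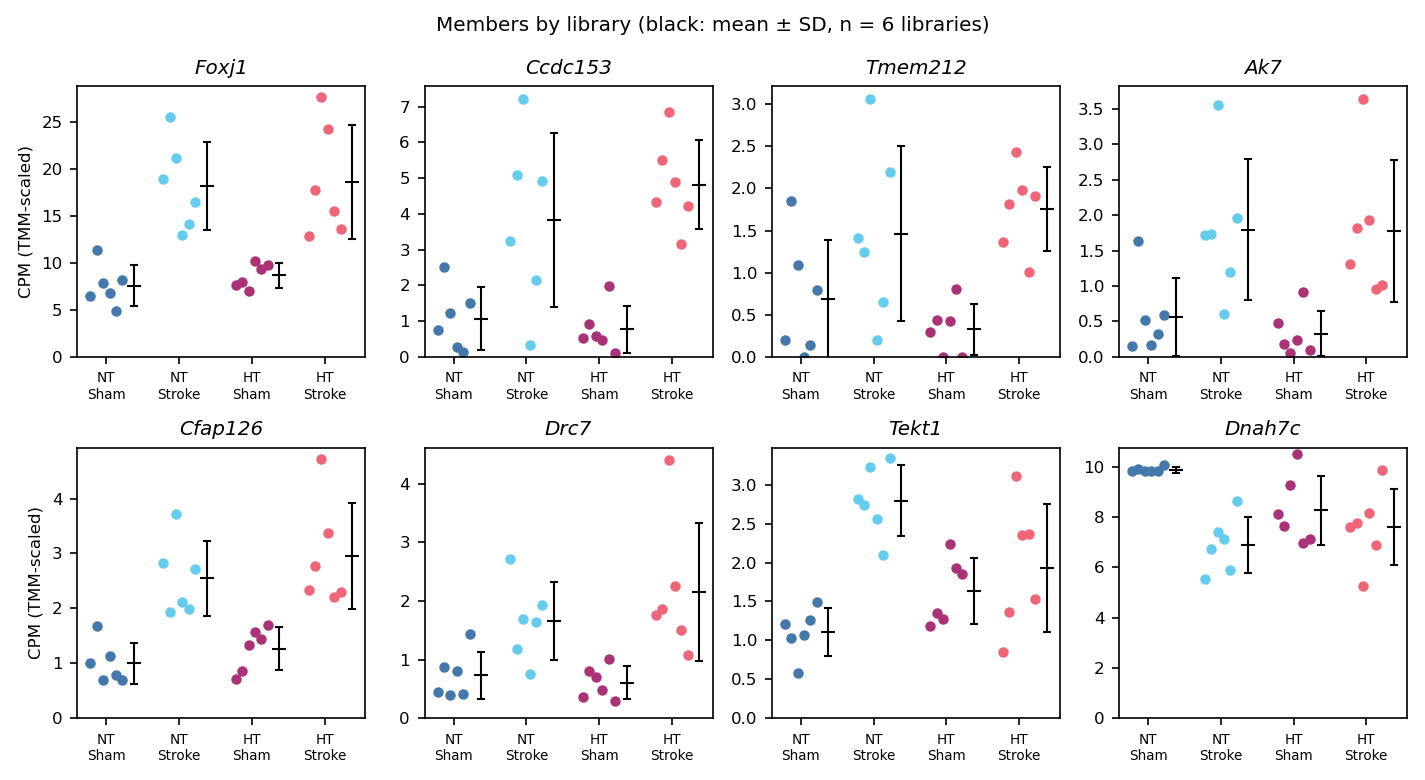
CPM of 8 members in each of the 24 libraries, by group, with the mean and SD (n = 6) in black and error bars cut at 0. *Foxj1* and *Cfap126* were higher in every stroke library than in every sham library of the same treatment, and *Tekt1* was so in NT mice but not in HT mice.

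The axoneme families moved unevenly in normotensive mice. Of the dynein heavy chains, the motor subunits of the arms, 3 of 14 tested rose, where 14.4% of all genes rose. *Dnah6* lay at 0.151 to 0.746 CPM across NT + Sham libraries and at 0.783 to 1.69 across NT + Stroke libraries, without overlap (log2 fold change 1.73 ± 0.35, adjusted P = 0.00123). *Dnah2* rose less, by 0.53 ± 0.14 on the log2 scale (adjusted P = 0.00848), again with no overlap. *Dnaic2*, an intermediate chain that anchors the outer arm and whose promoter carries the X-box printed above, rose by 1.11 ± 0.19 (adjusted P = 0.000213). Its sham libraries lay at 1.04 to 2.23 CPM (median 1.77) and its stroke libraries at 2.72 to 4.65 (median 4.11). The other intermediate chain, *Dnaic1*, whose promoter also holds an X-box, did not pass (0.21 ± 0.14, adjusted P = 0.284).

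The tektins (4 tested), radial spoke genes (6) and nexin-dynein regulatory complex genes (3) each had 1 member that rose. Of all genes, 14.4% rose. *Tekt1* (chr11:72344722-72362442, minus strand), a protofilament protein of the doublets, had the smallest P of all members in NT mice, with sham libraries at 0.577 to 1.49 CPM (median 1.14) and stroke libraries at 2.09 to 3.34 (median 2.78). The groups were apart, with a log2 difference of 1.33 ± 0.21 (adjusted P = 0.000111). *Rsph1*, a component of the radial spoke head, rose by 0.68 ± 0.19 (adjusted P = 0.0120), and *Drc7* of the nexin link (chr8:95055103-95078141, plus strand) rose by 1.18 ± 0.34 (adjusted P = 0.0159). Of the CFAP genes, 3 of 25 rose, against the same 14.4% of all genes. *Cfap126*, which acts in basal body positioning (chr1:171113918-171126967, plus strand), lay at 0.693 to 1.69 CPM (median 0.901) in NT + Sham and at 1.93 to 3.72 (median 2.42) in NT + Stroke, without overlap (1.35 ± 0.25, adjusted P = 0.000477). *Cfap97d2* and *Cfap43* rose by 0.85 ± 0.29 and 0.82 ± 0.24 (adjusted P = 0.0364 and 0.0183).

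Few of the more abundant members passed the test. Of the 19 members with at least 1 FPKM, 2 rose (*Foxj1* and *Rsph1*) and 1 fell, with a median log2 fold change of -0.04, and of the 40 tested members under 1 FPKM, 10 rose and 1 fell, with a median of 0.37. Among all genes tested, 14.4% rose and 11.5% fell, and no share over all genes was computed within each class. The 2 classes rest on NT + Sham values, which also enter the comparison. A low member could pass the filter on counts through the stroke libraries alone, as *Ak7*, *Dnah6*, *Drc7* and *Cfap97d2* did. The low class may therefore favour members that were higher after stroke. With at least 10 counts required in every library, 8 of 44 members rose (18.2%) and 2 fell. In that fit 26.5% of all genes passed in either direction. *Cfap36*, *Rsph9*, *Tekt5* and *Drc1*, each first in its family by FPKM, had log2 fold changes of -0.03 ± 0.06, -0.06 ± 0.09, -0.04 ± 0.10 and -0.09 ± 0.09, and none passed (adjusted P = 0.714, 0.668, 0.818 and 0.502).

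**Figure D2:**
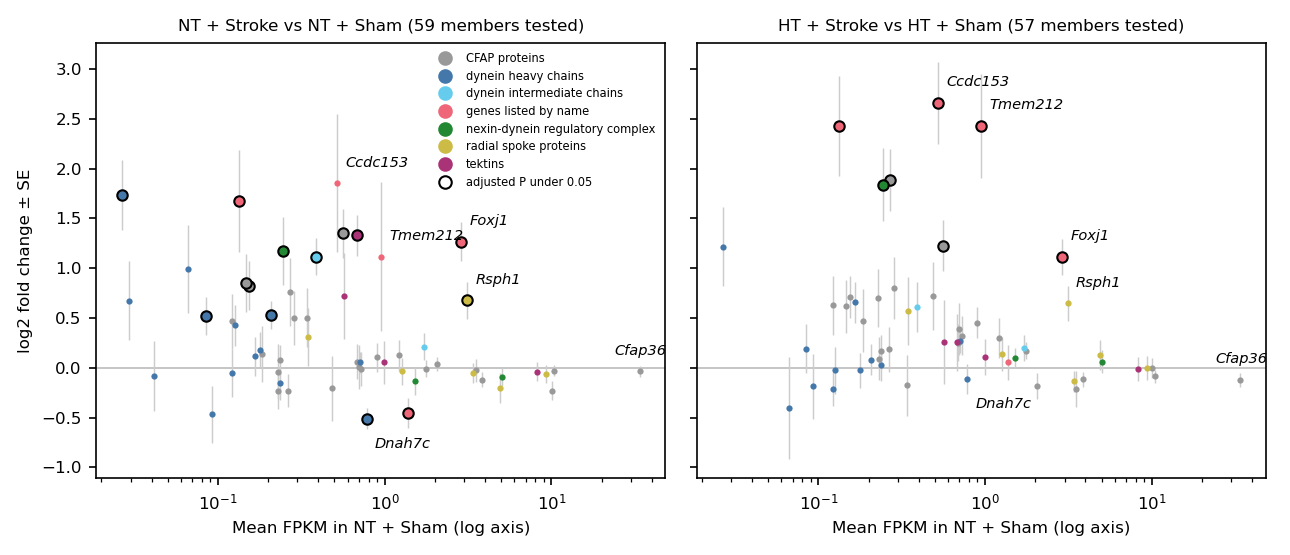
Log2 fold change ± SE of each tested member against its mean FPKM in NT + Sham (log axis), for stroke against sham in NT mice (left, 59 members) and HT mice (right, 57 members), coloured by family and outlined in black where the adjusted P was under 0.05. In the left panel, *Foxj1*, *Rsph1* and *Spag6* are the members at or above 1 FPKM that passed.

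The 2 members that fell in NT mice were *Spag6* and *Dnah7c*. *Spag6*, a protein of the central pair of microtubules, lay at 3.998 to 5.75 CPM (median 4.52) in NT + Sham and at 2.49 to 4.10 (median 3.51) in NT + Stroke, with overlap (log2 fold change -0.45 ± 0.15, adjusted P = 0.0294). *Dnah7c*, an inner arm heavy chain, lay at 9.81 to 10.1 CPM in NT + Sham and at 5.53 to 8.64 in NT + Stroke, without overlap (-0.51 ± 0.11, adjusted P = 0.00152). The SD of its 6 sham libraries was 0.106 CPM, below the 0.721 that counting alone would give. *Dnah7c* shares 23.9% of its 100-base stretches with other genes, mainly *Dnah7b* and *Dnah7a*, so reads may have been split among the copies. *Dnah7b* rose by 0.52 ± 0.19 (adjusted P = 0.0488) and *Dnah7a* differed by -0.15 ± 0.17 on the log2 scale (adjusted P = 0.575), and all 3 values are uncertain for that reason. *Rsph3a* and *Rsph3b* share 48.2% and 52.8% of theirs and did not pass in any comparison. With each library left out in turn in NT mice, *Dnah7b* passed in 3 of 12 fits, *Cfap97d2* in 4 and *Spag6* in 7. *Ak7* passed in 8 and *Cfap43* in 11, and the other members called in NT mice passed in all 12.

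Stroke was next compared with sham surgery in hypertensive mice, in libraries that do not enter the comparison above. Of 57 members tested, 7 rose (12.3%), none fell and 50 did not pass, against 0.544% of all 16741 genes that rose and 0.102% that fell. The 7 were *Ccdc153*, *Ak7*, *Tmem212*, *Cfap161*, *Drc7*, *Cfap126* and *Foxj1*. All 7 had no overlap between the groups, as did 0.579% of all genes in that direction, and 0.567% of all genes had no overlap in the other direction. The median log2 fold change was 0.19 over the tested members and 0.00 over all genes. Both shares rest on the same 12 libraries, of which HT + Sham library 6 and HT + Stroke libraries 1 and 6 stood apart in astrocyte markers. The summed CPM of 10 reactive astrocyte markers was 853 in that sham library against 284 to 386 in the other HT + Sham libraries, and 410 and 400 in those stroke libraries against 1408 to 2248 in the others. Without the 3 libraries, 8 of 58 members rose (13.8%) and 8.47% of all genes passed in either direction. A member low in the sham libraries could pass the filter on counts through the stroke libraries alone. *Ccdc153*, *Ak7*, *Tmem212*, *Cfap161* and *Drc7* had under 10 counts in several HT + Sham libraries and passed the filter in this way. The share of 12.3% may therefore favour members that were higher after stroke. With at least 10 counts required in every library, 2 of 42 members rose (4.76%) and 0.611% of all genes passed.

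Genes known from ependymal cells showed the largest differences. Of these, *Ccdc153*, *Tmem212* and *Ak7* had entered the test through their stroke libraries, as given above. *Ccdc153* lay at 0.1001 to 1.98 CPM (median 0.557) in HT + Sham and at 3.16 to 6.84 (median 4.60) in HT + Stroke, higher by 2.66 ± 0.41 on the log2 scale (adjusted P = 0.0141). *Tmem212* lay at 0 to 0.802 CPM (median 0.359) and at 1.004 to 2.43 (median 1.86), which differed by 2.43 ± 0.52 on the log2 scale (adjusted P = 0.0475). *Ak7* lay at 0.0580 to 0.909 CPM (median 0.213) and at 0.954 to 3.64 (median 1.56), which differed by 2.43 ± 0.50 on the log2 scale (adjusted P = 0.0385). In all 3 the lowest stroke library was library 5 and the highest was library 3. *Foxj1* lay at 7.02 to 10.3 CPM (median 8.66) in HT + Sham and at 12.9 to 27.7 (median 16.7) in HT + Stroke, which differed by 1.11 ± 0.18 on the log2 scale (adjusted P = 0.0156). *Spag6*, the other tested member that had been listed by name, differed by 0.06 ± 0.17 on the log2 scale (adjusted P = 0.913).

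Of the axoneme genes, *Cfap161*, which codes for a protein of the doublet lumen, lay at 0.241 to 0.870 CPM (median 0.418) in HT + Sham and at 1.19 to 2.34 (median 1.57) in HT + Stroke (log2 fold change 1.89 ± 0.31, adjusted P = 0.0156). *Drc7* lay at 0.3004 to 1.02 CPM (median 0.589) and at 1.08 to 4.41 (median 1.82), the top value again in stroke library 3 (1.84 ± 0.37, adjusted P = 0.0334). *Cfap126* lay at 0.711 to 1.70 CPM (median 1.39) and at 2.21 to 4.72 (median 2.56), which differed by 1.22 ± 0.26 on the log2 scale (adjusted P = 0.0408). None of the 12 dynein heavy chains, 2 intermediate chains, 6 radial spoke genes or 4 tektins tested passed in HT mice by the edgeR test, with 3, 1, 1 and 0 of them at an unadjusted P under 0.05, as were 17% of all genes. DESeq2 called 1 of them, *Rsph1*. *Tekt1*, first in NT mice, differed by 0.26 ± 0.28 on the log2 scale in HT mice (adjusted P = 0.705), and by 0.53 without the 3 libraries named above (adjusted P = 0.293). HT + Stroke library 1, in which astrocyte markers were at the sham level, held its lowest value (0.853 CPM) and library 3 its highest (3.10 CPM).

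The 7 calls in HT mice were sensitive to single libraries. Leaving out HT + Sham library 1 or HT + Stroke library 2 left 0, leaving out HT + Sham library 3 or 4 left 1 each, HT + Sham library 2 or HT + Stroke library 4 left 3 each, and HT + Stroke library 3 left 4. In those 7 fits 0.0531 to 0.434% of all genes passed, against 0.645% with every library. Leaving out each of the other 5 libraries left 6 to 9, with 0.746 to 3.15% of all genes. *Foxj1* and *Cfap161* each passed in 9 of the 12 such fits, *Ccdc153* in 8, *Drc7* in 6, *Tmem212* in 5, and *Ak7* and *Cfap126* in 4. Over those fits the log2 fold change was 2.08 to 3.07 for *Ak7*, 2.41 to 3.22 for *Ccdc153*, 2.15 to 2.95 for *Tmem212*, 1.75 to 2.16 for *Cfap161*, 1.48 to 2.05 for *Drc7*, 1.03 to 1.33 for *Cfap126* and 0.96 to 1.19 for *Foxj1*.

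The NT and HT comparisons shared 4 members that rose, *Foxj1*, *Ak7*, *Drc7* and *Cfap126*, which is 33.3% of the 12 in NT mice and 57.1% of the 7 in HT mice. Of all genes, 14.4% rose in NT mice and 0.544% in HT mice, and how many rose in both was not counted. Another 8 members rose in NT mice and did not pass in HT mice, among them *Tekt1*, *Dnah2*, *Dnaic2* and *Dnah6*, and *Ccdc153*, *Tmem212* and *Cfap161* rose in HT mice and did not pass in NT mice. None of these differences passed when the interaction of hypertension and stroke was tested over 61 members by edgeR, where 5 had an unadjusted P under 0.05 (10.4% of all genes) and 0% of 17608 genes passed. DESeq2 and limma also called 0 members. The smallest P was that of *Tekt1*, with an interaction of -1.08 ± 0.35 on the log2 scale (adjusted P = 0.322), followed by *Dnah2* (-0.46 ± 0.20, adjusted P = 0.435) and *Cfap161* (1.12 ± 0.49, adjusted P = 0.435).

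**Figure D3:**
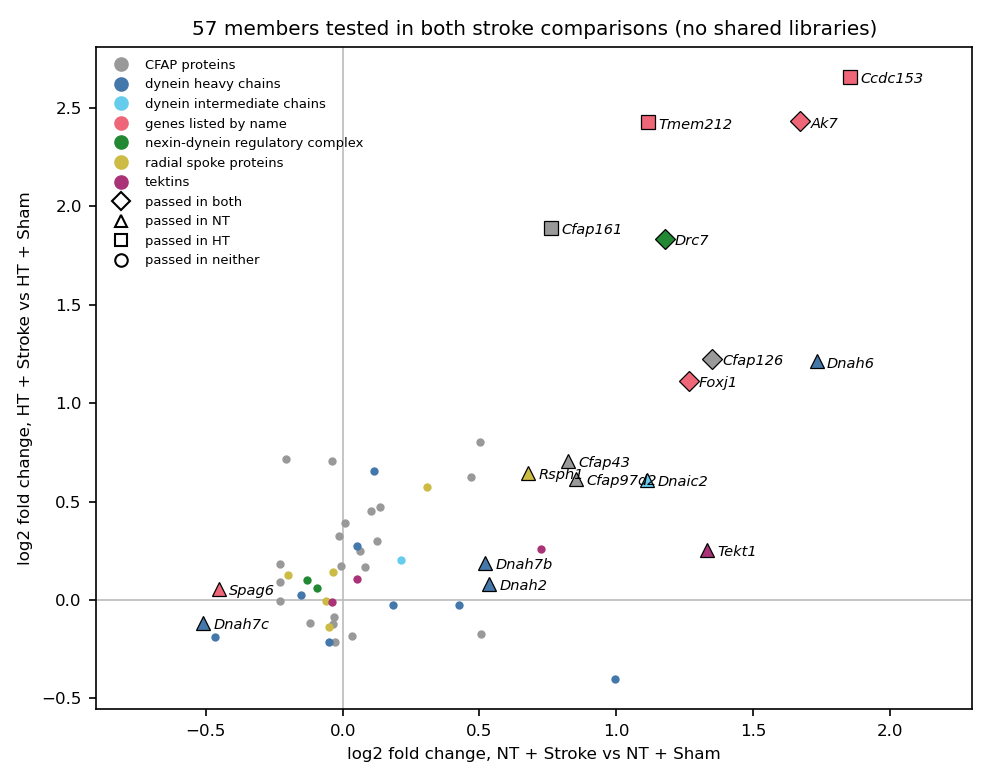
Log2 fold change of stroke against sham in NT mice (horizontal) and HT mice (vertical) for the 57 members tested in both comparisons, which share no library, coloured by family and shaped by where the adjusted P was under 0.05. *Foxj1*, *Ak7*, *Drc7* and *Cfap126* passed in both, and most other members lie near the origin.

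No member passed the test in either comparison of HT with NT mice that had the same surgery. In HT + Sham against NT + Sham, 0 of 54 members passed by edgeR, as did 0% of 16581 genes, with 3 members at an unadjusted P under 0.05 (8.03% of all genes) and 0 called by DESeq2 or limma. The 3 were *Dnah7c* (log2 fold change -0.26 ± 0.11), *Dnah2* (0.38 ± 0.16) and *Tekt1* (0.56 ± 0.24), with adjusted P of 0.560, 0.560 and 0.577. In HT + Stroke against NT + Stroke, 0 of 60 members passed by edgeR, as did 0% of 17008 genes, with 0 at an unadjusted P under 0.05 (7.23% of all genes) and 0 by DESeq2 or limma. The smallest P here were those of *Tekt1* (-0.53 ± 0.25, adjusted P = 0.654), *Cfap298* (0.18 ± 0.09, adjusted P = 0.654) and *Cfap299* (0.65 ± 0.37, adjusted P = 0.660). *Foxj1* differed by 0.20 ± 0.16 between the sham groups and by 0.03 ± 0.21 between the stroke groups (adjusted P = 0.848 and 0.975).

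HT + Stroke was also set against NT + Sham, whose libraries enter the NT stroke comparison above. Of 59 members tested, 11 rose (18.6%) and 0 fell by edgeR, against 8.38% and 6.37% of 16749 genes, with 17 members at an unadjusted P under 0.05 (29.6% of all genes), 1 of them lower, and 1 called lower by DESeq2. The largest were *Ccdc153* (2.20 ± 0.46, adjusted P = 0.0117), *Dnah6* (1.97 ± 0.45, adjusted P = 0.0136) and *Ak7* (1.69 ± 0.51, adjusted P = 0.0369). *Drc7*, *Cfap126* and *Foxj1* rose by 1.58 ± 0.38, 1.58 ± 0.27 and 1.31 ± 0.22 (adjusted P = 0.0159, 0.00836 and 0.00836). *Cfap161*, *Dnaic2*, *Cfap97d2*, *Rsph1* and *Cfap43* rose by 0.76 to 0.99. The count was 7 without any 1 of NT + Sham libraries 1, 3 and 5 or HT + Stroke libraries 2, 3 and 4. In those fits 11.9% of the members and 8.02 to 13.5% of all genes passed.

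**Figure D4:**
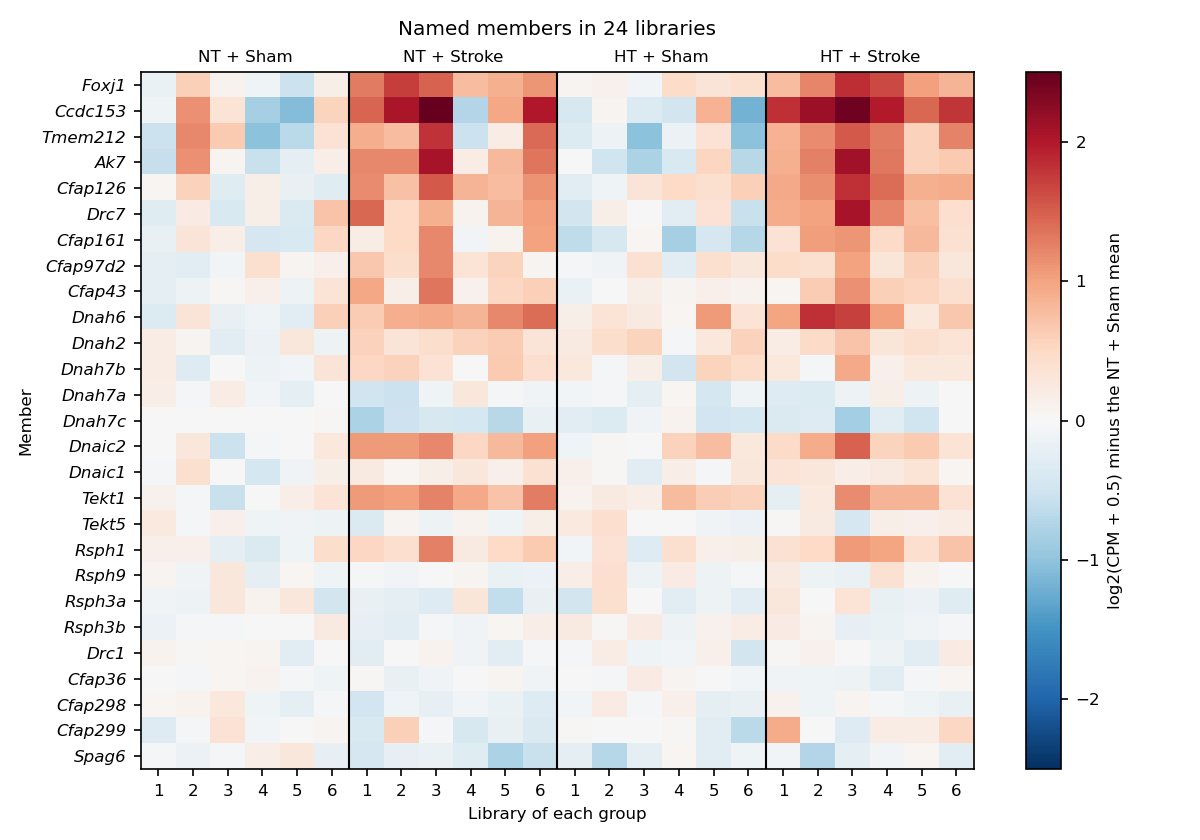
The 27 named members other than *Mia* in each of the 24 libraries, as log2(CPM + 0.5) minus the NT + Sham mean, with the groups set apart by black lines. The rows from *Foxj1* to *Dnah6* are higher in most stroke libraries. *Dnaic2* and *Rsph1* are higher in the libraries of both stroke groups, and *Tekt1* is higher in the 6 NT + Stroke libraries. *Cfap36*, *Rsph9* and *Drc1* stay near 0.

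Other genes of motile cilia were counted from a separate list of 52. In NT mice 9 of 40 tested rose and 2 fell, with a median log2 fold change of 0.28. Of all genes, 14.4% rose and 11.5% fell there, with a median of -0.01. *Ccdc114*, a docking protein of the outer dynein arm, rose by 1.02 ± 0.16 (adjusted P = 9.85e-05), the transcription factor *Rfx2* by 0.82 ± 0.15 (adjusted P = 0.000395) and *Lrrc23*, a radial spoke protein, by 1.05 ± 0.20 (adjusted P = 0.000844). In HT mice 0 of 38 passed by edgeR and 13 had an unadjusted P under 0.05, all higher, with a median of 0.33. Of all genes in HT mice, 0.645% passed and 17% had an unadjusted P under 0.05, in either direction. The smallest P of this list in HT mice was that of *Odf3b* (0.96 ± 0.23, adjusted P = 0.0687). Genes of primary cilia and intraflagellar transport, which nearly all cells use, were 4 higher and 4 lower of 45 in NT mice and 0 of 45 in HT mice by edgeR, where 6 had an unadjusted P under 0.05. In NT mice *Mks1*, of the ciliary transition zone, rose by 0.46 ± 0.10 and *Kifap3*, a subunit of the transport motor, fell by 0.32 on the log2 scale (adjusted P = 0.00228 and 0.000216).

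Striatal markers lay higher after stroke in both NT and HT mice, with few past the adjusted threshold. The other marker lists of neighbouring tissue had calls in NT mice only. The summed CPM of 13 striatal markers, from tissue that borders the lateral ventricle, was 446 to 1792 in NT + Sham (median 1081), 534 to 2409 in NT + Stroke (1828), 387 to 1247 in HT + Sham (892) and 972 to 2997 in HT + Stroke (2179). In HT mice all 13 were higher after stroke, 12 with an unadjusted P under 0.05 and 1 past the adjusted threshold, and in NT mice all 13 were higher and 1 passed. Septal markers (7, of which 4 rose in NT and 0 in HT mice) had summed ranges of 60.8 to 78.4, 105 to 145, 69.3 to 119 and 79.6 to 121 in the same order. Neuroblast markers of the subventricular zone (8 of 12 rose in NT and 0 in HT mice) had ranges of 157 to 208, 202 to 397, 185 to 388 and 145 to 302. Olfactory bulb markers (6 of 8 rose in NT and 0 in HT mice) had ranges of 124 to 263, 188 to 704, 191 to 849 and 70.3 to 533. By edgeR none of these 3 lists had a call in HT mice, with 2 septal and 2 neuroblast genes at an unadjusted P under 0.05, all higher, and 1 olfactory bulb gene, which was lower. All 8 olfactory bulb markers had log2 fold changes below 0 in HT mice (median -0.88) and above 0 in NT mice (median 1.22), and 6 of the 12 neuroblast markers were below 0 in HT mice. By the edgeR test of the interaction, 0 genes of these 3 lists passed (smallest adjusted P = 0.262). At an unadjusted P under 0.05 were 8 olfactory bulb, 9 neuroblast and 3 septal genes, all with an interaction below 0, against 10.4% of all genes. The 14 choroid plexus markers, from the other ciliated tissue of the ventricles, summed to 9.82 to 17.8, 18.05 to 35.2, 11.3 to 22.4 and 11.0 to 37.97 CPM, and 2 of 6 tested rose in NT mice (*Aqp1* and *Clic6*). In HT mice 0 of 4 passed by edgeR, 1 had an unadjusted P under 0.05 and was higher, and the other 3 had log2 fold changes below 0. Its defining markers were low, with *Ttr* at 0.0580 to 8.78 CPM, *Kcnj13* at most 1.12, *Folr1* at most 0.965 and *Slc4a5* at most 0.218 over the 24 libraries. The part of these tissues in the members' values was not tested. Reactive astrocyte markers rose in NT mice (10 of 10), and in HT mice 10 of 10 had an unadjusted P under 0.05, all higher, and 0 passed by edgeR. Microglial markers (8 of 9 rose in NT mice) had summed ranges of 258 to 281, 399 to 646, 271 to 365 and 299 to 716 CPM in the same order, and markers of meninges and fibroblasts (7 of 8 rose) had 59.2 to 72.6, 212 to 751, 58.9 to 223 and 86.6 to 859. Markers of cortical neurons (10 of 10 fell in NT mice) had 5988 to 6168, 4099 to 5190, 4897 to 6646 and 4264 to 5915. In HT mice none of these 3 lists had a call by edgeR, with 7 microglial and 5 meningeal genes at an unadjusted P under 0.05, all higher, and 2 neuronal genes, both lower. Their part in the members' values was not tested.

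*Ccdc153* and *Tmem212* tracked the striatal markers among libraries that had no stroke. Over the 12 sham libraries, Pearson's r with the striatal sum on a log scale was 0.887 for *Ccdc153* (Spearman's rho 0.923), with permutation P adjusted over 10 relations of 0.0016 and 0.0002. It was 0.840 within NT + Sham, 0.952 within HT + Sham and 0.886 without the 2 libraries farthest from the median (HT + Sham 6 and NT + Sham 3). *Tmem212* gave r = 0.825 and rho = 0.859 (permutation adjusted P = 0.00595 and 0.00395), with 0.952 and 0.613 within the groups and 0.753 without those 2 libraries. *Ak7* gave r = 0.637 and rho = 0.678 and did not pass (permutation adjusted P = 0.0517 and 0.0627). *Foxj1* gave r = 0.208 and rho = 0.315 (permutation adjusted P = 0.574 and 0.443), with 0.647 within NT + Sham and -0.484 within HT + Sham. *Spag6* gave r = -0.430 and rho = -0.469 (permutation adjusted P = 0.233 and 0.258).

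Over the 12 stroke libraries, r was 0.814 for *Ccdc153* and 0.744 for *Tmem212* (permutation adjusted P = 0.0174 and 0.0272), but rho was 0.552 and 0.406 (permutation adjusted P = 0.169 and 0.319) and r was 0.477 and 0.390 without the 2 libraries farthest from the median. The libraries left out were HT + Stroke 2 and NT + Stroke 4, and r was lower without them. NT + Stroke 4 was the lowest of its group in the striatal sum, in *Ccdc153* and in *Tmem212*. Within NT + Stroke and HT + Stroke, r was 0.929 and 0.427 for *Ccdc153*, and 0.818 and 0.467 for *Tmem212*. *Foxj1*, *Ak7* and *Spag6* gave r = 0.235, 0.528 and -0.156 in the stroke libraries (permutation adjusted P = 0.574, 0.132 and 0.634) and rho = -0.0350, 0.294 and -0.0490 (permutation adjusted P = 0.921, 0.443 and 0.921).

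**Figure D5:**
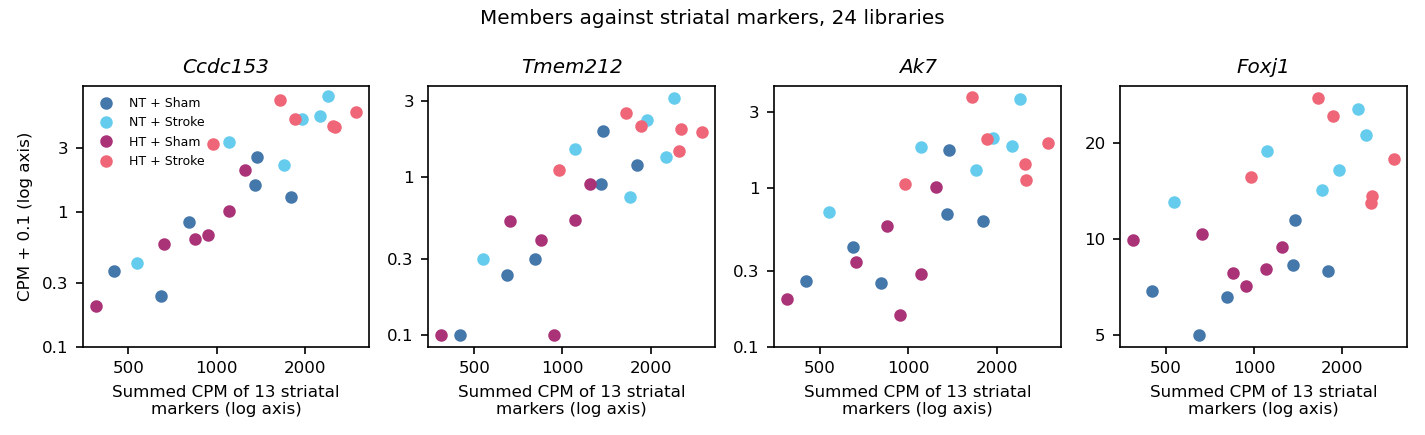
CPM + 0.1 of 4 members against the summed CPM of 13 striatal markers in the 24 libraries (both axes log), coloured by group. *Ccdc153* and *Tmem212* rise with the striatal sum within the sham libraries, and the stroke libraries of *Foxj1* lie above the sham libraries over the whole range of the sum.

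With the striatal score (the mean log2(CPM + 1) of those markers) as a covariate, an alternative chosen after seeing the data, 7 members rose in NT mice by edgeR and 1 fell. This was 13.6% of the members tested and 25.5% of all genes, against 23.7% and 25.9% without the covariate. *Foxj1* (1.05, adjusted P = 0.000123), *Tekt1* (1.32, 0.000313), *Dnaic2* (0.99, 0.0011), *Cfap126* (1.29, 0.00147), *Dnah6* (1.53, 0.00378) and *Dnah2* (0.60, 0.00667) still passed in NT mice, as did *Dnah7c*, which fell (-0.53, 0.0026), and *Dnah11* was added to those that rose. *Ak7* (1.02, 0.0617), *Drc7* (0.98, 0.0523) and *Rsph1* (0.47, 0.0559) did not, nor did *Cfap97d2* (0.84, 0.0684), *Cfap43* (0.66, 0.0705), *Spag6* (-0.39, 0.0898) and *Dnah7b* (0.39, 0.178), so that 7 of the 14 calls were lost, and *Ccdc153* had 0.73 and *Tmem212* 0.07 (0.155 and 0.940). In HT mice 0 members passed with the covariate by edgeR, and of all genes 0.0179% passed. There *Foxj1* kept a log2 fold change of 1.31 and *Cfap126* of 1.45, and *Ccdc153*, *Ak7* and *Tmem212* had 1.59, 1.62 and 1.41 (adjusted P = 0.0959, 0.11, 0.101, 0.246 and 0.303). Stroke and the striatal sum moved together in HT mice, and their parts in the members' values cannot be told apart there.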

How the data were processed

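Poly(A) RNA of 24 libraries (4 groups of 6) was analysed. The authors deposited 4 pairwise tables of raw counts per gene, made with featureCounts 1.5.0-p3 per the labels, and FPKM values that the authors scaled to gene length and library size. The strand setting of counting is not given in the sources used here. Values of the 48 library columns that recur between tables were compared and 0 differed. The 48 normalised columns, 8 group means and 12 columns of the authors' own comparisons (fold changes and P-values, made with DESeq2 1.20.0 per the labels) were not used.

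Library totals were 15922919 to 24865998 counts. Each pair of groups was tested on counts with edgeR 4.0.16 (robust quasi-likelihood test, R 4.3.3), after filterByExpr (minimum count 10, minimum total 15) and TMM scaling, with P-values adjusted by Benjamini-Hochberg across every gene tested and a threshold of 0.05. The interaction was fitted over the 4 groups. CPM values were TMM-scaled over the 24 libraries, and values after ± are SD for levels and SE for log2 fold changes. Alternatives were DESeq2 1.42.0, limma 3.58.1 on log2(FPKM + 1) and log2(FPKM + 0.1), other scalings and filters, a fit over all 4 groups, each library left out, and, chosen after seeing the data, 3 libraries left out, a striatal covariate and the library number as a block. Correlations used log2 of the striatal summed CPM and log2(CPM + 0.1), with 100000 two-sided permutations. The test script was checked on simulated data.

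Members and lists were chosen with earlier results of these data known. Members named with values were the 6 listed by name, the highest of each family by FPKM in NT + Sham, up to 10 with the largest changes in each direction per comparison among those that passed (or the 3 smallest P), the 3 smallest P for the interaction, and near-identical copies. *Dnah2*, *Cfap44* and other members outside a comparison's rule were named after their values were seen. Gene positions are on GRCm38, and 65 of the 70 members had the same position in the reference annotation used for copies and overlaps. *Cfap298* is uncertain, since 53.6% of its exon bases overlap genes on the other strand.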

Additional observations from a re-analysis of the deposited data

Results flagged for a closer look

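In the 28 named members, 112 groups of 6 libraries were searched for a library far from the other 5, and 12 held one (chance gives about 1 in 20 groups). HT + Stroke library 3 was the highest of its group in 4 of them, at 3.64 CPM for *Ak7*, 4.41 for *Drc7*, 3.69 for *Dnah7b* and 1.89 for *Cfap97d2*, and the lowest for *Tekt5* at 11.0 CPM. NT + Stroke library 3 was far above its group for *Rsph1* (9.30 CPM), and NT + Stroke library 2 for *Cfap299* (1.30 CPM). In NT + Sham, library 2 was high for *Ak7* (1.63 CPM), library 6 for *Dnah7c* (10.1 CPM) and *Rsph3b* (12.4 CPM), and library 5 was low for *Drc1* (11.3 CPM). HT + Sham library 5 was high for *Dnah6* (1.23 CPM).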

How the results depend on the processing

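Of 1190 values of named members under an alternative, 1005 kept their direction and side of the threshold, 168 kept the direction and lost the call, 14 gained a call and 3 changed sign. The 3 were those of *Spag6*, which never passed there. With each library left out it lay between -0.0400 and 0.144 on the log2 scale in HT + Stroke against HT + Sham, below 0 without HT + Sham library 2 or HT + Stroke library 5, and it was 0.0234 in HT + Stroke against NT + Sham with the striatal covariate. The 14 members that passed in NT mice became 8 with the striatal covariate and 10 to 15 with each library left out. In those fits 25.5% and 20.8 to 24.8% of all genes passed, against 25.9% in the test reported. The 7 in HT mice became 2 with at least 10 counts required in every library (fewer genes were tested), 4 with limma on log2(FPKM + 1), 4 with no scaling beyond library size, 0 with the striatal covariate and 0 to 9 with each library left out. Of all genes, 0.611, 0.406, 0.4, 0.0179 and 0.0531 to 3.15% passed in those fits, in that order. The 11 in HT + Stroke against NT + Sham became 6 under the stricter filter, 0 with the covariate and 7 to 12 with each library left out. There 15.6, 0 and 8.02 to 17.5% of all genes passed, against 14.7% in the test reported. Other causes were not tested. In HT mice DESeq2 called 8 members and 5.32% of all genes, and the fit over all 4 groups 8 members and 6.39% of all genes, against 0.645% in the test reported. The 0 members of HT + Sham against NT + Sham, of HT + Stroke against NT + Stroke and of the interaction stayed 0 in each alternative run. Libraries carry a number from 1 to 6 in every group, and no label ties a number to a shared litter, batch or day. Same-numbered libraries did not all deviate together (r of deviations over 17608 genes -0.10 to 0.28 in NT mice and -0.48 to 0.22 in HT mice, over 0.1 in 3 of 6 pairs in each). Such mixed values cannot show whether same-numbered libraries share more than a number. A fit with that number as a replicate block, chosen after seeing the data, called 17 members and 27.5% of all genes in NT mice, 2 and 0.275% in HT mice, and 4 and 4.6% in HT + Stroke against NT + Sham. In the stroke against sham comparisons of NT and HT mice, 1 to 4 of the 6 libraries of a group correlated best with their own number. Many members lie under 1 FPKM, where counts limit what can be detected.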

Other observations

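HT + Stroke library 3 held the highest CPM of its group for 37 of 67 members (55.2%) and for 27.1% of all genes. NT + Stroke library 3 did so for 24 of 67 members (35.8%) and for 16.3% of all genes.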
